A study of Homo sapiens
Mus musculus with 3 samples.

Results

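The transcription factor MYC and 2 nucleolar proteins encoded by genes it is known to activate, nucleophosmin (NPM1) and nucleolin (NCL), were followed in single wells of 3 ICELL8 libraries. The genes were taken by Ensembl identifier in both species of the combined read tables: human MYC (ENSG00000136997), NPM1 (ENSG00000181163) and NCL (ENSG00000115053), and mouse Myc (ENSMUSG00000022346), Npm1 (ENSMUSG00000057113) and Ncl (ENSMUSG00000026234). All 6 were found among the 60736 genes of the tables. The ICELL8 dispenses a cell suspension into nanowells, images them and barcodes the transcripts of each well. Every library came from the same kind of sample, an equal mixture of 4 lymphocyte lines. These were the human T-cell leukemia lines Jurkat and TALL-104, the mouse T-cell lymphoma line EL4 and the mouse hybridoma line IVA12. In the study each line had its own medium, and only TALL-104 was grown with interleukin-2. The group 3'DE held 2 libraries made with the standard kit, and the group 3'DE-UMI held 1 library made with a protocol that allows unique molecular identifiers (UMIs) to be counted. In the study, the 3'DE-UMI library and the second of the 3'DE libraries came from one mixture, and the first from another. Values listed for all libraries are in this order: first 3'DE library, second 3'DE library, 3'DE-UMI library.

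MYC is a basic helix-loop-helix transcription factor that drives cell growth, in large part by raising the production of ribosomes, and its mRNA and protein are short-lived. NPM1 is an abundant nucleolar chaperone that takes part in ribosome assembly and export. NCL binds nascent ribosomal RNA and takes part in its transcription and processing. MYC is a classical oncogene of lymphoid tumors, and NPM1 and NCL are widely used as readouts of its activity.

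The libraries held between 35581264 and 109702878 reads, and 1293 to 1635 wells per library passed the filter, with median depths of 22199 to 27390.0 reads. The single-species wells were clustered without the 6 genes, which gave 2 clusters per species. No pairing of identifiers with symbols was at hand beyond the 6 genes, so marker genes were not read and no cluster was matched to a line. The study itself assigned cells to the lines by correlation with bulk RNA sequencing. The clusters are therefore called by number. Mouse cluster 1 held 474, 498 and 470 wells, and mouse cluster 2 held 448, 275 and 230 wells. Human cluster 1 held 407, 448 and 528 wells. Human cluster 2 held 126, 36 and 29 wells and was shallow, with a median of 4460, 9277 and 4808 human reads per well against 25638, 36445 and 17469 in human cluster 1. Whether its wells are cells of one human line or wells of low quality was not tested, and every difference between the human clusters is subject to this. The study reports that TALL-104 gave the fewest reads, UMIs and genes of its lines in all experiments. It also found this line harder to culture. Between 387 and 481 well barcodes occurred in the kept wells of any pair of libraries.

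Levels were computed as reads of a gene per 1000000 reads of its own species (CPM), summed over the wells of a cluster in one library. They were not divided by gene length, so levels are compared for one gene between samples and not between genes. In such sums, fewer expressing cells and less RNA per cell cannot be told apart.

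Myc was much higher in mouse cluster 2 than in mouse cluster 1. Its level in cluster 1 was 33.7, 47.8 and 50.4 CPM. In cluster 2 it was 180, 406 and 431 CPM. The ranges of the clusters did not overlap, and within cluster 2 the value of 3'DE library 1 was the lowest. The share of all mouse genes without overlap was not computed. In edgeR, with the library as a block, the log2 difference of cluster 1 from cluster 2 was -2.64 ± 0.21 (SE, 3 libraries), a 6.23-fold higher level in cluster 2, with an adjusted p of 1.83e-05. The call held under all 9 alternative settings that could be run, where the difference lay between -2.70 and -2.42, and without each library in turn, where it lay between -2.81 and -2.54. In this comparison 39.1% of the 12087 mouse genes tested were called, 19.8% higher and 19.3% lower in cluster 1, and the median difference was -0.04. The Myc difference was below that of all but 11.2% of the genes tested.

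**Figure D1:**
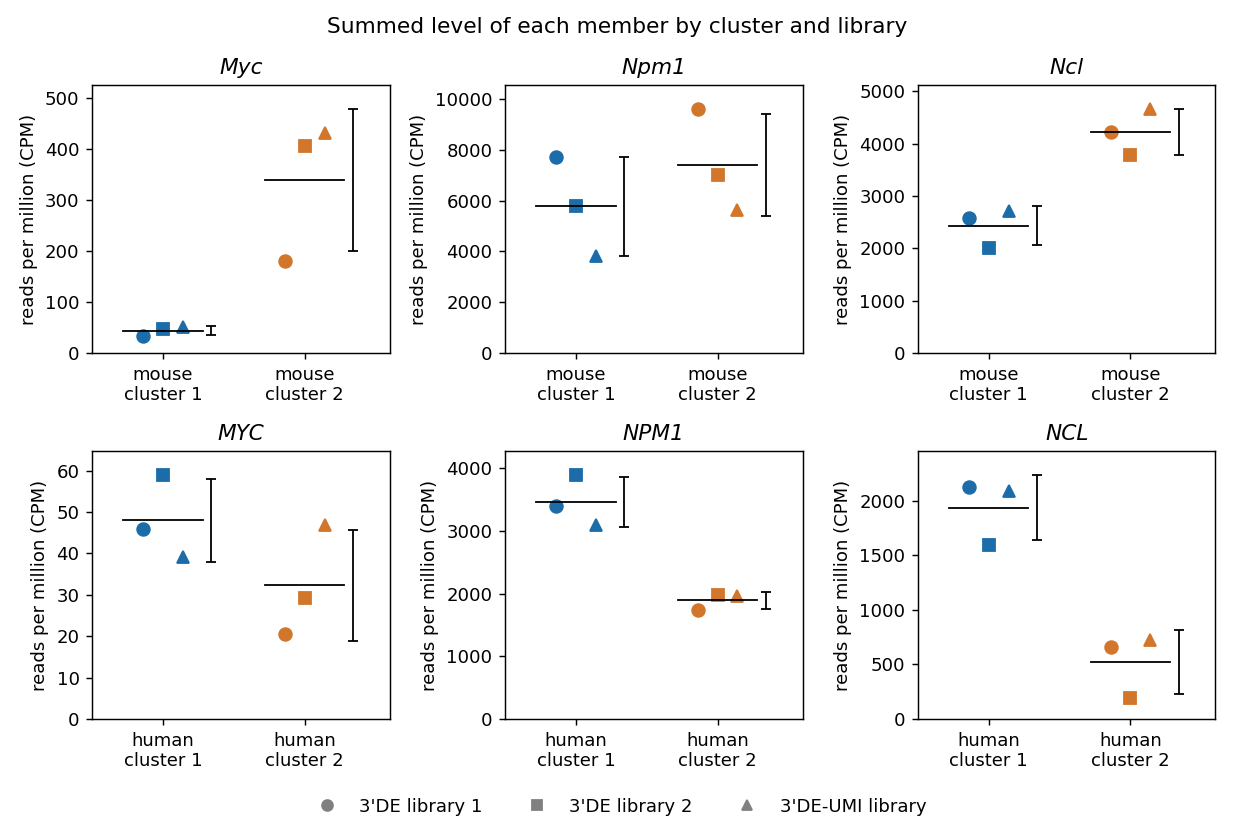
Summed level of each gene in CPM, on linear axes from 0, with 1 symbol per library, the mean over the 3 libraries as a horizontal line and its SD as the bar on the right. The 3 Myc values of mouse cluster 2 lie between 180 and 431 CPM, all above the cluster 1 values of 33.7 to 50.4 CPM, whereas the Npm1 values of both clusters overlap.

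Of the nucleolar genes, Ncl was moderately higher in mouse cluster 2. Its level was 2574, 2006 and 2712 CPM in cluster 1 and 4219, 3782 and 4658 CPM in cluster 2. The clusters did not overlap, which was not set against all mouse genes. The ratio of cluster 2 to cluster 1 within a library was 1.64, 1.89 and 1.72. The edgeR difference of cluster 1 from cluster 2 was -0.57 ± 0.17 (SE, 3 libraries) on the log2 scale, with an adjusted p of 0.0227. This is a 1.49-fold higher level in cluster 2. The difference was below that of all but 32.7% of the genes tested, of which 39.1% were called. The Ncl call was lost without 3'DE library 1 (-0.57, adjusted p 0.0704) and without 3'DE library 2 (-0.54, adjusted p 0.131). It held without the 3'DE-UMI library (adjusted p 0.0370) and under the 9 other settings, whose adjusted p ranged from 0.00173 to 0.0286 together with the main value.

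Npm1 gave no call between the mouse clusters. Its level was 7718, 5783 and 3820.0 CPM in cluster 1 and 9594, 7005 and 5638 CPM in cluster 2. Within each library cluster 2 was higher, by 1.24, 1.21 and 1.48 times, but the difference between libraries was larger than that between clusters, and the ranges overlapped. On the TMM scale of edgeR the difference of cluster 1 from cluster 2 was -0.15 ± 0.17 (SE, 3 libraries), with an adjusted p of 0.509. The CPM ratios include a shift common to many genes, since the median log2 CPM ratio of cluster 1 to cluster 2 over all genes tested was -0.12, -0.25 and -0.27 in the 3 libraries. The log2 CPM ratio of cluster 1 to cluster 2 lay between -3.10 and -2.41 for Myc, between -0.91 and -0.71 for Ncl and between -0.56 and -0.28 for Npm1. The sizes were not tested against each other.

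UMI counts were available for the 3'DE-UMI library alone. Myc gave 63 UMIs in the 470 wells of mouse cluster 1 and 303 UMIs in the 230 wells of cluster 2, which is 40.3 and 325 when scaled like CPM to the mouse UMIs of the cluster. The scaled UMI levels were 1820 and 3250.2 for Ncl and 2904 and 4155 for Npm1. All 3 genes were higher in cluster 2 in UMIs as they were in reads. With these UMI counts in place of the reads of that library, edgeR gave a Myc difference of -2.56, an Ncl difference of -0.54 and an Npm1 difference of -0.09, and only the first 2 were called (adjusted p of 5.11e-09, 0.0286 and 0.744).

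The share of wells with at least 1 Myc read was compared after each well had been thinned to 5000 reads of its own species. In the 3'DE-UMI library the median well held 2646 mouse UMIs in cluster 1 and 3193 in cluster 2. At this depth Myc was detected in 13.5% of 458 wells of cluster 1 in 3'DE library 1 (95% exact binomial interval 10.5 to 17.0%). In cluster 2 of the same library it was detected in 54.7% of 428 wells (49.8 to 59.5%). The shares were 13.6% of 478 wells (10.7 to 17.0%) and 59.4% of 234 wells (52.8 to 65.8%) in 3'DE library 2. In the 3'DE-UMI library they were 7.02% of 456 wells (4.85 to 9.76%) and 48.2% of 224 wells (41.5 to 55.0%). In every library the intervals of the clusters were apart. Without thinning, the shares were 36.5, 35.5 and 11.9% in cluster 1 and 79.9, 71.6 and 63.5% in cluster 2. The intervals cover the sampling of wells within a library only, and wells are not replicates. Reads are not independent molecules either.

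Free RNA was read from wells of the other species. Mouse Myc was found in 4.88% of 533, 11.6% of 484 and 0.898% of 557 human wells, at median depths of 21426, 34368 and 16457 reads. This amounted to a Myc level of 4.22, 6.60 and 1.80 CPM over all reads of those wells, below the level in mouse cluster 1 in every library. The unthinned share of wells with Myc in mouse cluster 1 was also above the share in human wells in every library, at median depths of 28429, 36855 and 29910 mouse reads. For Npm1 and Ncl, 16.0 to 71.7% of human wells held a read, against 92.3 to 100% of the wells of both mouse clusters, so for these genes the share of wells says little and the level was used.

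**Figure D2:**
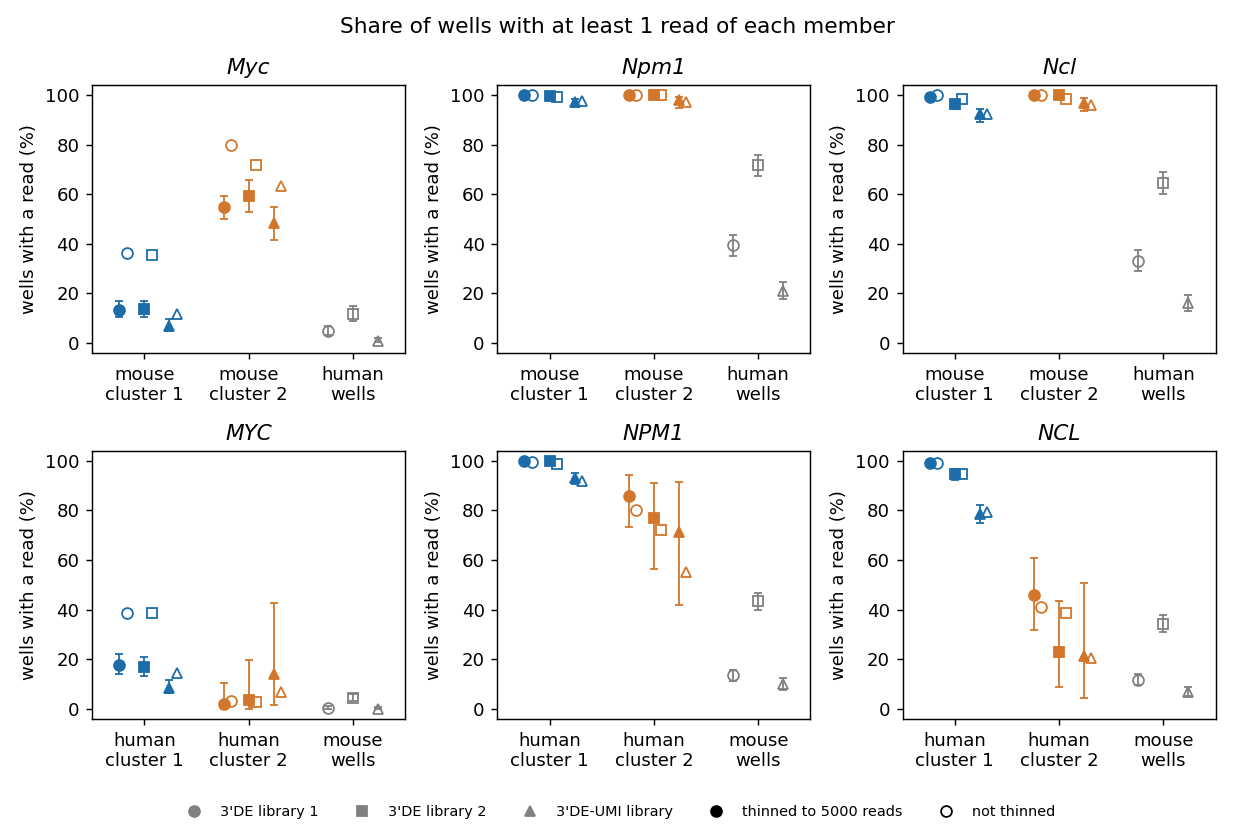
Percent of wells with at least 1 read of each gene in each cluster and, in grey, in wells of the other species, with 1 symbol per library. Filled symbols are wells thinned to 5000 reads, open symbols are wells at full depth, and bars are 95% exact binomial intervals. The Myc shares of mouse cluster 2, between 48.2 and 59.4% after thinning, stand above those of cluster 1, between 7.02 and 13.6%.

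In the human wells, levels of NPM1 and NCL were higher in cluster 1 than in cluster 2. NCL had 2128, 1595 and 2092 CPM in cluster 1 and 659, 190 and 725 CPM in cluster 2. NPM1 had 3394, 3887 and 3098 CPM in cluster 1 and 1731, 1972 and 1966 CPM in cluster 2. For both genes the clusters did not overlap, but the share of all human genes without overlap was not computed. The counts behind cluster 2 were low: NCL rested there on 417, 266 and 139 reads, and NPM1 on 1095, 2754 and 377 reads.

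These differences could not be separated from a shift of the human genes as a whole. The edgeR difference of cluster 1 from cluster 2 was 2.28 ± 0.44 (SE, 3 libraries) for NCL and 1.05 ± 0.29 for NPM1, with adjusted p of 3.55e-05 and 0.0125, in a comparison that called 3.61% of 10735 genes, 2.33% higher and 1.28% lower. The median difference over all these genes was 1.84, so NCL lay 0.43 above the median and NPM1 lay below it, at -0.79. With upper-quartile factors the median moved to 1.06 and the share of calls that were higher moved from 64.6 to 26.0%. The differences of NCL and NPM1 became 1.32 and 0.08, neither was called (adjusted p 0.416 and 0.971 in edgeR), and relative to the median they were 0.27 and -0.97. The position also varied between libraries. Over all genes tested, the median log2 CPM ratio of cluster 1 to cluster 2 was 0.44, 1.73 and 2.27. For NCL the ratio was 1.69, 3.07 and 1.53, below that median in the 3'DE-UMI library alone. For NPM1 it was 0.97, 0.98 and 0.66, above that median in 3'DE library 1 alone. DESeq2 called neither NCL (2.09 ± 1.01, adjusted p 0.131) nor NPM1 (0.86 ± 1.004, adjusted p 0.578), with larger SEs than edgeR. Without 3'DE library 1 neither NCL (2.52, adjusted p 0.538) nor NPM1 (1.04, adjusted p 0.567) remained called in edgeR, and NPM1 was also lost without the 3'DE-UMI library (0.72, adjusted p 0.529). Human cluster 2 had a median of 677, 724 and 255 detected human genes per well, against 2636, 2204 and 790 in cluster 1, and the part of this difference in depth in the result was not tested.

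MYC was low in both human clusters. In cluster 1 it had 45.9, 58.9 and 39.2 CPM. In cluster 2 it had 20.6, 29.4 and 46.9 CPM, from 13, 41 and 9 reads. The ranges overlapped. In 3'DE library 2, all 41 reads came from 1 of the 36 wells. By means over wells the log2 ratio of cluster 1 to cluster 2 was 1.52, -0.47 and 0.35. From the sums it was 1.16, 1.005 and -0.26. The edgeR difference was 0.82 ± 1.70 (SE, 3 libraries) with an adjusted p of 0.819, and it turned to -0.11 with upper-quartile factors. The standard error allows a large difference in either direction. After thinning to 5000 reads, MYC was detected in 17.9% of 390 (95% exact interval 14.3 to 22.1%), 17.0% of 418 (13.5 to 20.9%) and 8.68% of 484 (6.33 to 11.6%) wells of cluster 1. At full depth the shares in cluster 1 were 38.8, 38.6 and 14.6%. The MYC share in mouse wells, the measure of background, was 0.434, 4.53 and 0.143% at median depths of 23714, 31942 and 31409 reads. In human cluster 2, which was shallower than the mouse wells, the unthinned share was 3.17, 2.78 and 6.90%. In 3'DE library 2 the 1 well with MYC held 41 reads, where no mouse well held more than 8 MYC reads.

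The share of wells with a read of the human nucleolar genes was also taken after thinning to equal numbers of reads. Equal reads did not mean equal numbers of molecules, since the median well of the 3'DE-UMI library held 1401 human UMIs in cluster 1 and 353 in cluster 2. NCL was detected in 99.0, 94.7 and 78.7% of thinned wells of human cluster 1 and in 46.0, 23.1 and 21.4% of those of cluster 2, where 50, 26 and 14 wells reached 5000 human reads. NPM1 was detected in 100, 99.8 and 93.2% of thinned wells of cluster 1 and in 86.0, 76.9 and 71.4% of those of cluster 2. At full depth the cluster 2 shares were 41.3, 38.9 and 20.7% for NCL and 80.2, 72.2 and 55.2% for NPM1. In mouse wells, NCL was found in 11.7, 34.4 and 6.86% and NPM1 in 13.6, 43.3 and 10%. For NCL in 3'DE library 2 the share in cluster 2 was close to that in mouse wells, which were deeper, so it carries little information.

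The 3'DE-UMI protocol was compared with 3'DE within each cluster that held enough wells, with 2 libraries against 1. Human cluster 2 was left out for its few wells. Npm1 in mouse cluster 1 was the only one of the genes past the threshold. Its level fell from 7718 and 5783 CPM in the 3'DE libraries to 3820.0 CPM in the 3'DE-UMI library. The log2 difference of 3'DE-UMI from 3'DE in edgeR was -0.97 ± 0.31 (SE), with an adjusted p of 0.04996, just inside the threshold of 0.05. Of the 9 other settings 4 did not call it, and the adjusted p ranged from 0.00932 to 0.204. In that comparison 12.2% of 11790 genes were called, 7.63% lower and 4.53% higher. Against 3'DE library 2 alone, from the same mixture, the difference was -0.67, with no test possible. In mouse cluster 2 the 3'DE levels of 9594 and 7005 CPM also lay above the 3'DE-UMI level of 5638 CPM, but the difference of -0.81 ± 0.92 was not called (adjusted p 0.715 in edgeR), in a comparison that called 2.41% of 11626 genes.

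For the other genes no protocol difference was called. Ncl differed by 0.10 ± 0.30 in mouse cluster 1 and by -0.02 ± 0.81 in mouse cluster 2 (log2 difference ± SE). For Myc the values were 0.18 ± 0.39 and 0.39 ± 0.53. In human cluster 1, where 12.3% of 13732 genes were called, MYC differed by -0.28 ± 0.46, NPM1 by -0.09 ± 0.23 and NCL by 0.32 ± 0.25. Adjusted p in edgeR ranged from 0.421 for NCL in human cluster 1 to 0.995 for Ncl in mouse cluster 2. With 1 residual degree of freedom, these comparisons do not show that the protocols gave equal levels.

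**Figure D3:**
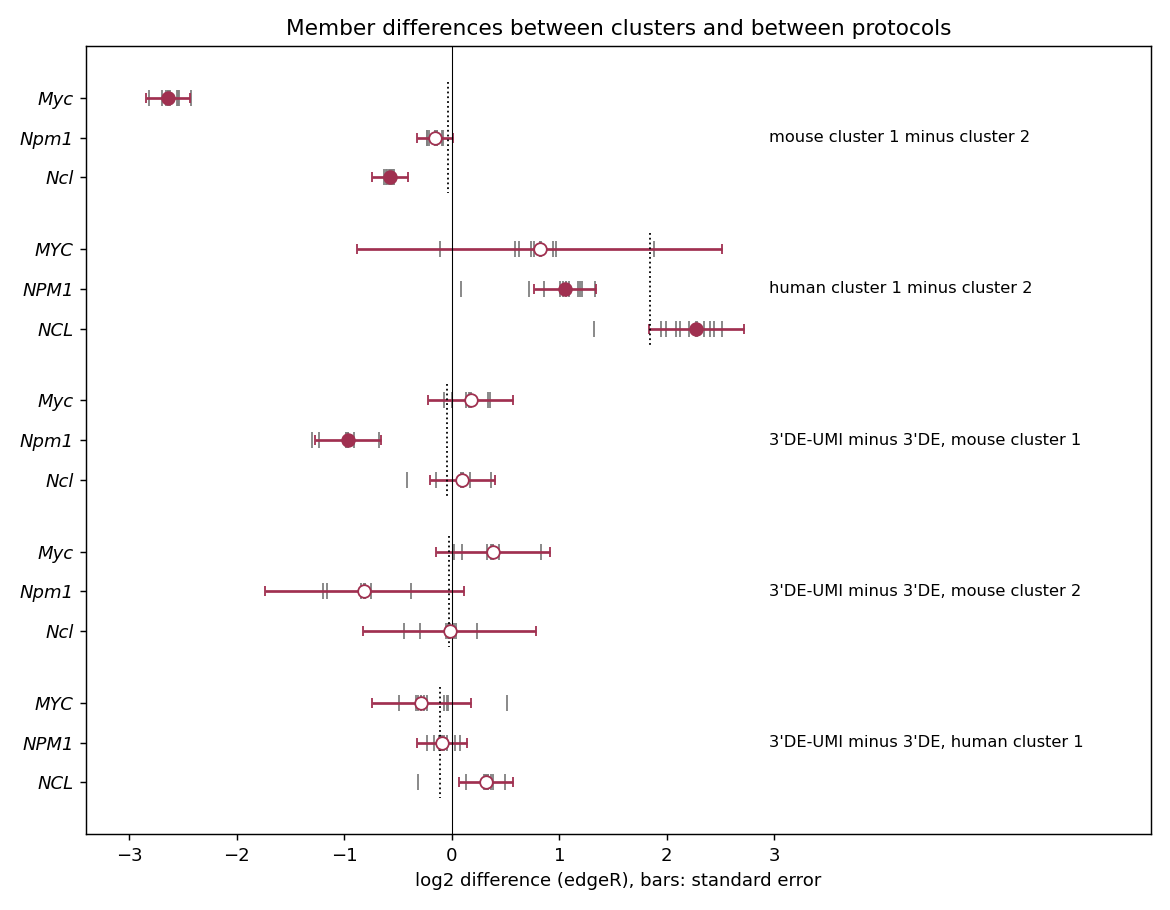
Log2 differences from edgeR for each gene, between clusters (upper 2 blocks) and between protocols (lower 3 blocks). Circles are the main values with their standard errors, filled where the adjusted p was at most 0.05, grey ticks are the values under the alternative settings, and the dotted line in each block is the median over all genes tested. Myc in the mouse clusters stands at -2.64, and NPM1 and NCL in the human clusters lie on either side of a median of 1.84.

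The difference between clusters was not shown to change with the protocol for any of the 6 genes. For the mouse genes the change of the cluster difference from 3'DE to 3'DE-UMI was -0.24 ± 0.39 for Myc, -0.17 ± 0.35 for Npm1 and 0.13 ± 0.35 for Ncl (log2 ± SE, interaction term in edgeR), with adjusted p of 0.913, 0.955 and 0.989, where 2.2% of 13242 genes were called. For the human genes the values were -0.82 ± 2.85 for MYC, 0.19 ± 0.56 for NPM1 and -0.33 ± 0.75 for NCL, each with an adjusted p of 1, where 0.447% of 12524 genes were called. They rest on the few wells of human cluster 2, and the median over all genes tested was 4.16, so relative to it the values were -4.98 for MYC, -3.96 for NPM1 and -4.49 for NCL. With upper-quartile factors the share of calls that were higher moved from 92.9 to 0%, and the values became -3.79 for MYC, -2.78 for NPM1 and -3.31 for NCL, all uncalled. The human values near 0 therefore do not show that the cluster difference was the same under both protocols.

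Reads per UMI in the 3'DE-UMI library differed more between the human genes than between the mouse genes. In mouse cluster 1, Myc had 14.5, Npm1 15.2 and Ncl 17.3 reads per UMI, where the median was 13.8 over the 3697 genes with at least 50 UMIs. In mouse cluster 2 the values were 14.5, 14.8 and 15.7 reads per UMI, with a median of 12.9 over 2745 genes. In human cluster 1, MYC had 7.83 reads per UMI, from 76 UMIs. This was above only 7.70% of the 2715 genes with at least 50 UMIs, whose median was 16.3. NPM1 had 14.3 and NCL had 21.1 reads per UMI there. With UMIs in place of the reads of that library, which sets UMIs against reads, the difference of 3'DE-UMI from 3'DE turned from -0.28 to 0.52 for MYC and from 0.32 to -0.31 for NCL, both uncalled.

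**Figure D4:**
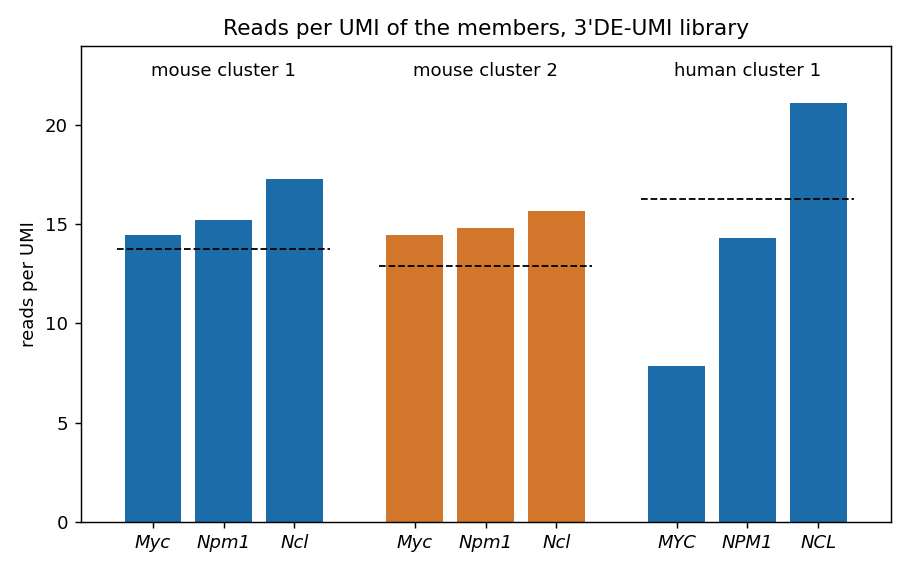
Reads per UMI of each gene in the 3'DE-UMI library as bars from 0, for both mouse clusters and human cluster 1, with the median over all genes with at least 50 UMIs as a dashed line. The bars of the mouse genes lie between 14.5 and 17.3, and those of the human genes between 7.83 for MYC and 21.1 for NCL.

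The spread among the wells of one cluster was taken at equal numbers of reads. At 5000 reads per well, Npm1 in mouse cluster 1 had a mean of 38.0 ± 13.7, 25.4 ± 14.03 and 18.4 ± 12.3 reads (SD over wells). Its coefficient of variation was 0.36, 0.55 and 0.67 in that order. For Ncl in the same wells the coefficient was 0.50, 0.75 and 0.92, and for Myc 3.04, 3.96 and 4.50. Myc had a mean of only 0.19, 0.28 and 0.21 reads there, so counting noise takes a larger part of its coefficient. For each of these genes it was lowest in 3'DE library 1 and highest in the 3'DE-UMI library. The same order held for NPM1 (0.46, 0.48 and 0.72) and NCL (0.58, 0.77 and 1.09) in human cluster 1. Depth was also concentrated differently: the deepest 10% of wells of mouse cluster 1 held 16.7, 43.7 and 29.6% of the mouse reads, and 17.8, 48.2 and 32.3% of the Npm1 reads.

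Whether the nucleolar genes follow Myc from well to well was described in the same thinned wells. In mouse cluster 2 of 3'DE library 1, Npm1 had 46.3 ± 13.1 reads (mean ± SD over wells) in the 234 wells with a Myc read and 48.7 ± 14.1 reads in the 194 wells without. Ncl had 20.4 ± 8.64 and 21.5 ± 8.89 reads. In mouse cluster 2 of the 3'DE-UMI library, the 108 wells with a Myc read had 21.1 ± 11.7 Ncl reads and the 116 wells without had 24.9 ± 14.5. In the mouse clusters, 11 of 12 log2 ratios of wells with to wells without a Myc read were below 0, with a range of -0.24 to 0.18. In human cluster 1 all 6 ratios were above 0, between 0.04 and 0.21. All these ratios were small beside the spread over wells. At 2000 reads per well, 3 of the 12 mouse ratios and 4 of the 6 human ratios were above 0. Wells are not replicates and no test was made. The median depth before thinning was 20873 reads in the wells with and 20424 reads in the wells without a Myc read of mouse cluster 2 in 3'DE library 1, but 41299 and 29437 reads in the 3'DE-UMI library.

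**Figure D5:**
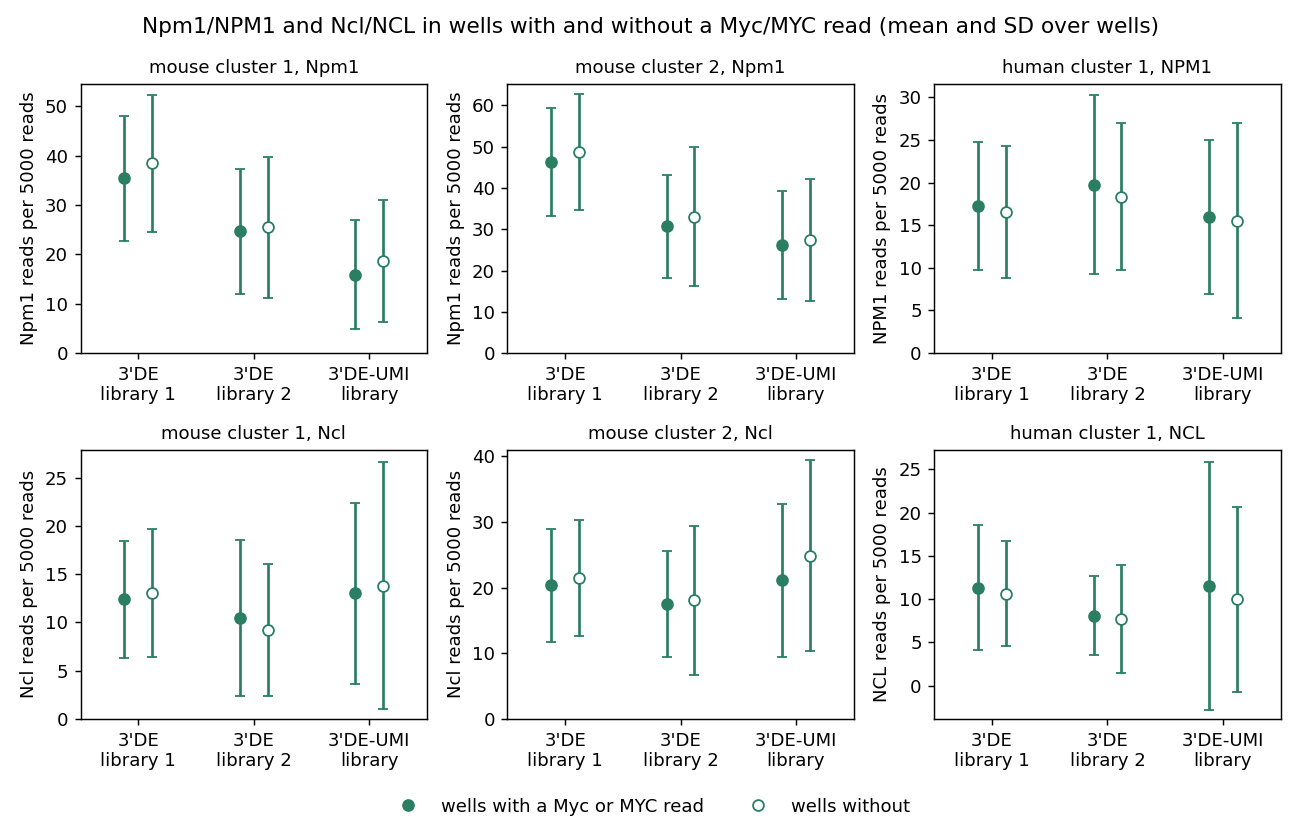
Mean and SD over wells of the reads of Npm1 or NPM1 (upper row) and Ncl or NCL (lower row) per 5000 reads, in wells with (filled) and without (open) a read of Myc or MYC, for each library. In every panel the error bars of both kinds of wells overlap almost fully, as for Npm1 in mouse cluster 2 of 3'DE library 1, with 46.3 and 48.7 reads.

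Over single wells at 5000 reads, Spearman's rho of Myc or MYC with a nucleolar gene lay between -0.12 and 0.06 in the 18 combinations of gene, cluster and library (224 to 484 wells each, human cluster 2 left out). Between Npm1 and Ncl it was 0.50, 0.23 and 0.12 in mouse cluster 1 and 0.34, -0.03 and 0.09 in mouse cluster 2. Between NPM1 and NCL in human cluster 1 it was 0.27, 0.17 and 0.05. The wells of one library share its amplification and sequencing, and these values are a description.

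Over the 6 sums of the mouse wells (2 clusters in 3 libraries), Myc and Ncl had a Pearson's r of 0.88 on log2(CPM + 1), which placed Ncl at rank 389 among the 2991 genes with a mean of at least 50 CPM. Npm1 stood at rank 1421, with r = 0.23. The gene most like Myc was ENSMUSG00000034593 (r = 0.998), and 321 genes had r above 0.9. The gene most like Ncl was ENSMUSG00000038650 (r = 0.999). In the human wells NPM1 and NCL had r = 0.77 over the 6 sums, and MYC had a mean under 50 CPM. Sums of one library share its preparation, so the 6 points are not independent.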

How the data were processed

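The deposited files held counts. For each library the authors had made unscaled counts of reads, by gene and well barcode, with mappa and STAR 2.7.0b on a combined hg19 and mm10 reference, and for the 3'DE-UMI library also a table of UMI counts with the Drop-seq tools and STAR 2.4.2a. The study chose wells imaged as holding 1 cell, but the tables held 20, 20 and 95 barcodes beyond the processed wells of the labels, and which barcodes these are was not known. The methods describe these tables as made from downsampled reads. The depth of the libraries still differed in the deposited counts. The treatment of reads that map to several places was not given either. RefSeq names 50 pseudogenes of NPM1 and 2 of NCL in human, so reads of these genes may have been split.

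Wells with at least 1000 reads and 200 genes were kept. Wells with 10% or more reads of the other species (36 to 180 per library) were left out, and doublets within a species could not be recognized. Clustering used scanpy 1.11.5 on all libraries together (1000 variable genes without the 6 genes described, 20 components, 15 neighbours, Leiden resolution 0.1). A clustering on one set of the genes with tests on the remaining genes, and the reverse, was added after seeing the data. Sums of reads for each library and cluster were tested in edgeR 4.0.16 (R 4.3.3, filterByExpr, TMM, quasi-likelihood test, two-sided, Benjamini-Hochberg adjustment over all genes tested, threshold 0.05), with the library as a block between clusters. Nothing says that the libraries came from separate cultures, so p-values measure at most the spread between these libraries, which may be technical. Each edgeR SE was the absolute log2 difference divided by the square root of the F statistic. The test also draws on the spread of all genes. Between the human clusters, in both interactions and for the protocol in mouse cluster 2, SE and p related as under a normal distribution. Those p-values rest on a spread pooled over genes and not on that of each gene over the libraries. The protocol comparisons and interactions had 1 residual degree of freedom and assume that the single 3'DE-UMI library varies like the 3'DE libraries. With 2 libraries against 1, the smallest exact permutation p is 0.333. The fits were also run on simulated counts with balanced changes and no library effect. This does not test them under a shift of most genes, as between the human clusters.

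The genes and lists were chosen with earlier results of these data known. Genes were named by identifier alone, and at most the gene most like a member was to be printed where no symbol was at hand. The nucleolar and ribosome biogenesis list, the cell line markers and mitochondrially encoded genes could not be matched to identifiers, so those counts, the naming of clusters and the comparisons by cell line are not reported. DESeq2 1.42.0, upper-quartile factors, no filter, equal weights, at least 5000 reads per well, a mixed limit of 5%, other clustering genes, UMI counts and leaving out each library were tried as alternatives.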

Additional observations from a re-analysis of the deposited data

How the results depend on the processing

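Between clusters, 48 of 54 results of the 6 genes under other settings kept their direction and their side of the threshold. The exceptions were human. The MYC difference turned to -0.11 with upper-quartile factors. The NPM1 call was lost with DESeq2 (0.86), the mixed limit of 5% (1.01) and upper-quartile factors (0.084), and the NCL call with DESeq2 (2.09) and upper-quartile factors (1.32). Without 1 library at a time, log2 differences lay between -0.60 and -0.54 for Ncl, 0.72 and 1.196 for NPM1 and 1.99 and 2.52 for NCL. Genes called between mouse clusters numbered 4727, and 2958 to 5083 without 1 library. Between human clusters they numbered 387, with 1546 in DESeq2, 935 with UMI counts, 247 with at least 5000 reads per well, 227 with upper-quartile factors, and 27 (without 3'DE library 1) to 436 without 1 library.

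For the protocol, the Npm1 call in mouse cluster 1 was lost with UMI counts (-1.30), equal weights (-0.91), genes in 2 sets (-0.97) and the mixed limit of 5% (-0.97). Uncalled differences that changed sign were, with UMI counts, Myc (-0.075) and Ncl (-0.42) in mouse cluster 1, and MYC (0.52) and NCL (-0.31) in human cluster 1. With equal weights they were Ncl in mouse cluster 2 (0.023) and NPM1 in human cluster 1 (0.078), and with upper-quartile factors Ncl in mouse cluster 2 (0.039). Against a single 3'DE library, without a test, Ncl was -0.14 or 0.36 in mouse cluster 1 and -0.29 or 0.23 in mouse cluster 2, Npm1 ranged from -1.201 to -0.38 in mouse cluster 2, and NPM1 from -0.23 to 0.026 in human cluster 1. Genes called numbered 892 with UMI counts in mouse cluster 1 (1434 otherwise), and 774 with UMI counts and 2718 with equal weights in human cluster 1 (1687 otherwise).

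The change of the cluster difference with the protocol turned sign, uncalled, for Myc with equal weights (0.037), for MYC with UMI counts (0.30), equal weights (0.10) and the mixed limit of 5% (10.8, where 1 sum was 0), for NPM1 with equal weights (-0.22) and upper-quartile factors (-2.78), and for NCL with UMI counts (0.14), equal weights (0.81) and the mixed limit of 5% (0.11). Without a change of sign, it moved with upper-quartile factors from -0.82 to -3.79 for MYC and from -0.33 to -3.31 for NCL (unadjusted p 0.0117), and with UMI counts from 0.19 to 1.44 for NPM1 (unadjusted p 0.0112), all uncalled. Without 1 library it lay between -0.52 and 0.024 for Myc, -1.08 and 0.031 for MYC, 0.022 and 0.97 for NPM1, and -0.24 and 0.18 for NCL. Genes called in mouse numbered 51 in DESeq2 and 7 with UMI counts (291 otherwise). In human they numbered 0 in DESeq2 (800 at an unadjusted p under 0.05), 14 with UMI counts, 34 with at least 5000 reads, 233 with equal weights, 88 with the mixed limit of 5% and 121 with upper-quartile factors (56 otherwise). The cause of these shifts was not tested. Assignment by markers, totals without mitochondrially encoded genes and counts over the ribosome biogenesis list were not run, since symbols could not be matched. The protocols could not be tested in pairs, since only 3'DE library 2 shared a mixture with the 3'DE-UMI library. Depth limits MYC in human cluster 2 most, with 9 to 41 reads per library.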
